A study of Mus musculus with 25 samples.

Results

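The sinoatrial node (SAN) was compared with the right atrium (RA) in mice at postnatal day 4 (P4), with 3 libraries per tissue. These 6 of the 25 libraries in the series were chosen by their labels alone. Each came from mice that carry an Hcn4-GFP reporter on a mixed background, and the RA libraries carry it too. Tissue was frozen, cut into sections 8 microns thick, and SAN or RA was outlined by eye and taken by laser capture, so each library holds all the cell types within the outline. Sections were stained for Hcn4 after capture to check the dissection, which makes Hcn4 a check here and not a finding. The total RNA underwent single primer isothermal amplification before library construction. SAN and RA at embryonic day 14.5 (E14.5) and at postnatal day 14 (P14), 3 libraries each, were used to set the P4 difference beside the earlier and later ones.

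The SAN is the pacemaker of the heart. Its myocytes depolarise by themselves through hyperpolarisation-activated (HCN) current and calcium cycling, they are weakly coupled by gap junctions, and they are kept apart from working atrial muscle by transcription factors such as Tbx3, Shox2 and Isl1. Working atrial myocytes conduct fast through sodium channels and connexins 40 and 43 and secrete natriuretic peptides.

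Levels are given as CPM, the deposited value divided by 24.3, a constant that puts the average library on the usual CPM total. Recovered depth at P4 was 5101711 to 12869678 reads per library, 1 read was worth 0.0870 to 0.215 CPM, and 15657 to 18729 genes were detected. RA replicate 3 was the shallowest library and had the fewest genes. On log2(CPM + 1) values SAN replicate 3 correlated at 0.911 and 0.918 with the other SAN libraries and at 0.921 and 0.920 with RA replicates 1 and 2, and it held more smooth muscle transcripts than any other P4 library. Xist, which is transcribed from the inactive X chromosome, was high in 1 of 3 libraries of each tissue, SAN replicate 3 and RA replicate 1. Nothing in the labels says which animal a library came from. The p-values therefore cover the spread between libraries alone, and they are too small if libraries of the same tissue share an animal. A SAN and an RA library from 1 animal would be a pair, which the main fit does not use.

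At P4 the node differed from the atrium in both directions to a similar extent. Of 17568 genes tested, 1047 (5.96%) passed limma at a Benjamini-Hochberg adjusted p under 0.05, with 521 (2.97%) higher in SAN and 526 (2.99%) lower. Counts of called list members below are to be read beside these shares. A difference of at least 2 on the log2(CPM + 1) scale was reached by 279 of the higher and 238 of the lower genes, and a difference of at least 5 by 25 and 18. This scale understates the change of genes with low levels. The 3 SAN libraries lay wholly above the 3 RA libraries for 1309 genes (7.45%) and wholly below for 1934 (11%), while 3198 genes had an unadjusted p under 0.05. Without RA replicate 3 the number called was 751, without SAN replicate 2 it was 750 and without SAN replicate 3 it was 1374, and 680 of the 1047 calls were kept without RA replicate 3. Scaling the libraries to equal sarcomere levels gave 973 higher and 344 lower, and moved the median log2 difference of all genes to 0.18, against −0.07.

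**Figure D1:**
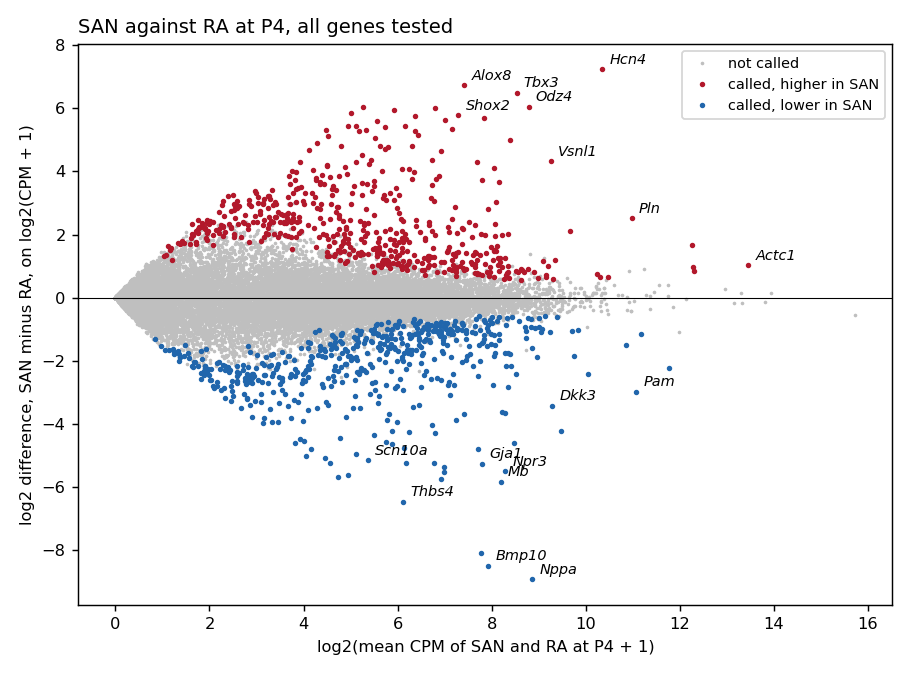
Log2 difference SAN minus RA at P4 (vertical axis, on log2(CPM + 1)) against the log2 mean CPM of both tissues (horizontal axis) for the 17568 genes tested. Red points are the 521 genes called higher in SAN and blue points the 526 called lower, and Nppa and Bmp10 lie furthest below 0 while Hcn4 lies furthest above it.

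The transcription factors of the node were all higher in SAN. All 5 tested members of that list were called (against 2.97% of all genes), with a median log2 difference of 5.42 where all genes had −0.07, and 4 to 5 of them were called when any 1 library was left out. Tbx3, the T-box repressor of the working atrial programme, had 858, 750.2 and 577 CPM in SAN, against 5.49, 3.88 and 15.1 CPM in RA. The 3 SAN libraries were far above the highest RA library, RA replicate 3, and the log2 difference was 6.49 ± 0.34 (SE, limma adjusted p = 3.54e-11). Shox2, a homeodomain factor needed for the node, had 309, 342 and 261 CPM in SAN, against 1.63, 2.93 and 15.5 CPM in RA (5.77 ± 0.47), again with no overlap and with RA replicate 3 the highest of the RA libraries. Isl1, a LIM homeodomain factor of cardiac progenitors that persists in the node, had 149, 108 and 51.7 CPM in SAN, against 0.712, 0.314 and 3.87 CPM in RA (5.42 ± 0.58). The lowest SAN library was still above the highest RA library. Tbx18, needed to form the node head, separated the tissues by less, with 325, 181 and 161 CPM in SAN, against 64.8, 91.4 and 83.1 CPM in RA. The SAN mean was 2.79 times the RA mean, against 63.0 times for Isl1 and 89.4 times for Tbx3. Tbx2, a repressor related to Tbx3, had 11.4, 8.22 and 21.7 CPM in SAN, against 1.42, 1.78 and 4.30 CPM in RA (2.06 ± 0.49), and its call was lost without RA replicate 1, RA replicate 2 or SAN replicate 3, with adjusted p up to 0.164 over all settings tried.

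**Figure D2:**
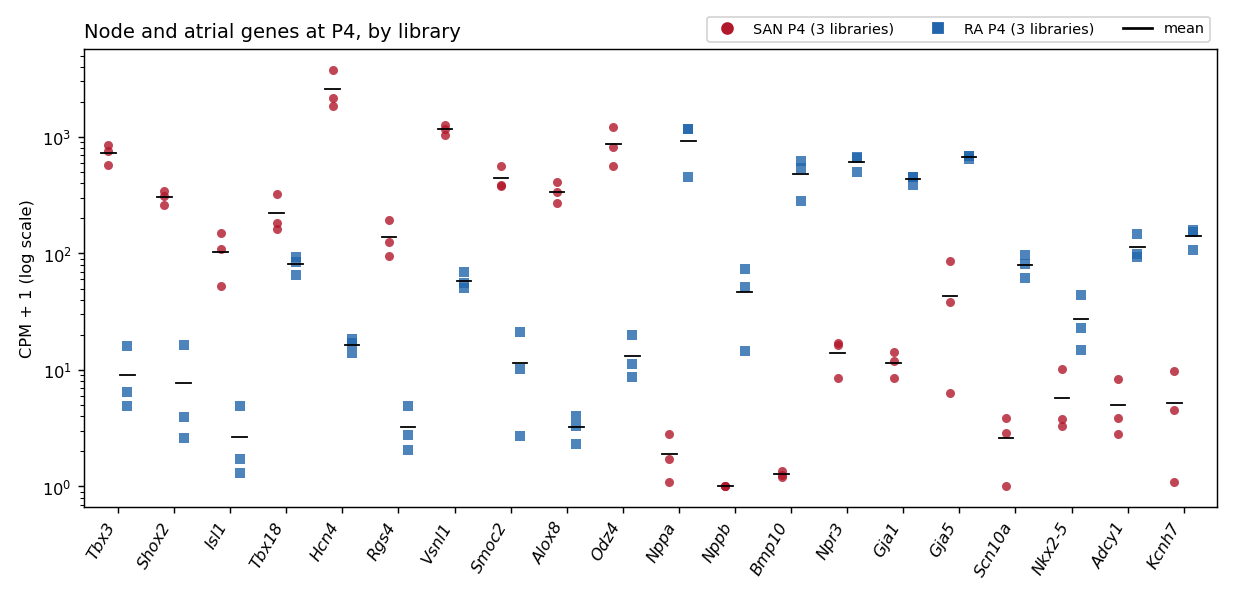
CPM + 1 on a log axis for 20 node and atrial genes in the 3 SAN (red circles) and 3 RA (blue squares) libraries at P4, with black bars at the means. Node genes such as Tbx3, Isl1 and Hcn4 are high in SAN, atrial genes such as Nppa, Bmp10 and Gja1 are high in RA, and the libraries of the 2 tissues do not overlap for any gene shown.

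Genes listed as markers of the node were likewise higher, with 8 of 9 called and a median of 4.32. This list, like that of the node transcription factors, was chosen with earlier results of these data known, so its count is no independent result. Hcn4, the gene of the dissection check, is not on this list. It had 3748, 1849.7 and 2144 CPM in SAN, against 12.9, 17.5 and 16.1 CPM in RA, without overlap. These are RNA levels, a measure other than the staining of the sections. Vsnl1, a neuronal calcium sensor, had 1278, 1169 and 1030.0 CPM in SAN, against 68.5, 54.3 and 49.1 CPM in RA (4.32 ± 0.22, adjusted p = 2.69e-11). Every SAN library stood far above every RA library. Alox8, a lipoxygenase, had 336, 407 and 272 CPM in SAN, against 1.32, 2.30 and 3.01 CPM in RA (6.74 ± 0.44). Smoc2, a secreted matrix protein, had 379.7, 562 and 386 CPM in SAN, against 1.73, 9.22 and 20.2 CPM in RA (5.70 ± 0.45). For both genes SAN libraries stood well apart from RA. The adhesion gene Pcdh17, a protocadherin, had 753, 468 and 282 CPM in SAN, against 19.0, 23.8 and 39.2 CPM in RA, and Cckar, a cholecystokinin receptor, had 73.4, 19.2 and 18.5 CPM in SAN, against 0, 0.105 and 0 CPM in RA. The RA values of Cckar rest on 1 read against 1205 in SAN, a ratio of 894 with a 95% exact interval of 160.2 to 35346 that covers counting error only. Odz4, given below with the adhesion genes, is also on the list and was called. Rgs6 and Cpne5 completed the list of called markers, at 2.25 ± 0.30 and 1.83 ± 0.46. The Cpne5 call was lost without RA replicate 3, SAN replicate 1 or SAN replicate 2.

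The secreted peptides of atrial muscle were nearly absent from the node. Nppa, which encodes atrial natriuretic peptide, had 0.734, 0.1003 and 1.83 CPM in SAN, against 1161, 1164 and 449.6 CPM in RA, and the log2 difference was −8.92 ± 0.59 (adjusted p = 1.10e-09). Bmp10, a growth factor of atrial and trabecular myocytes, had 0.367, 0.201 and 0.261 CPM in SAN, against 280.4, 544 and 622 CPM in RA (−8.49 ± 0.50, adjusted p = 2.31e-10). In both genes no SAN library came near the lowest RA library. Nppb, for brain natriuretic peptide, was listed at 0 in the 3 SAN libraries and had 72.1, 50.6 and 13.6 CPM in RA. Set against the largest floor of 3 reads in a SAN library, 0.301 CPM, RA was at least 151-fold higher.

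In RefSeq promoter windows of GRCm38.p6, from 250 bases before to 50 after the gene start, the Nppa window (chr4:148000472-148000771, plus strand) and the Nppb window (chr4:147985650-147985949, plus strand) are shown because both genes were at or near 0 in the node. The Nppa promoter is known for a paired T-box and NK2 site. Capitals mark AGGTGTGA, a T-box core that contains GGTGTG (read on the minus strand, bases 1 to 8), and TNAAGTG, an NK2 element (plus strand, bases 10 to 16), in Nppa, and GGTGTG alone (minus strand, bases 24 to 29) in Nppb.
Nppa: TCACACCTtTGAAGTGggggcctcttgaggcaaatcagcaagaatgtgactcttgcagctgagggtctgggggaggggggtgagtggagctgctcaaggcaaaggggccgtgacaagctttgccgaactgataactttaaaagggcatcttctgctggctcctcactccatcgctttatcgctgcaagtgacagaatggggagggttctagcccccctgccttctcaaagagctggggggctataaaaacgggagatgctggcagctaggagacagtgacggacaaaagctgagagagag
Nppb: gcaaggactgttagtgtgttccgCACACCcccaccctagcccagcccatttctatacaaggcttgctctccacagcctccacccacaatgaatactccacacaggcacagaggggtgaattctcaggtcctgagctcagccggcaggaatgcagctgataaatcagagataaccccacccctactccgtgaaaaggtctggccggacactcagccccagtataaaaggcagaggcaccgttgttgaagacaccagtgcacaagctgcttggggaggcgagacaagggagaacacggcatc
On either strand GGTGTG is in 19.0% of 32851 windows, AGGTGTGA in 1.28%, TNAAGTG in 11.5% and the last 2 together in 0.183%. Of the 12 named genes with the largest differences below 0, 11 have a window, and 4 of these hold GGTGTG, namely Nppa, Nppb, Sbk2 and Thbs4. Bmp10 and Sall1, which were also at or near 0 in the node, have a window without it. Of the 11 with the largest differences above 0, 7 have a window and 0 hold it. Such matches are descriptions of letters, and binding was not measured.

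Across the list of atrial peptides, their processing enzymes and receptors, 8 of 16 tested members were lower in SAN (2.99% of all genes) and 2 higher, and the median was −1.42. Npr3, the natriuretic peptide clearance receptor that is also an endocardial marker, had 15.5, 7.52 and 16.0 CPM in SAN, against 656, 667 and 499.9 CPM in RA (−5.50 ± 0.34). Pam, the peptide amidating enzyme of atrial granules, had 471, 414 and 587 CPM in SAN, against 3719.8, 3880.3 and 3839.5 CPM in RA (−2.97 ± 0.21), with RA libraries within a narrow range well above SAN. Corin, the protease that activates atrial natriuretic peptide, was at −2.16 ± 0.32, and Ednrb, an endothelin receptor, at −2.16 ± 0.28. Adm, for adrenomedullin, had 5.41, 23.3 and 11.8 CPM in SAN, against 80.4, 52.0 and 46.5 CPM in RA (−2.23 ± 0.50), a call lost without SAN replicate 1. The members higher in SAN were Mstn, for myostatin, with 305, 138 and 59.8 CPM in SAN, against 3.87, 1.89 and 3.01 CPM in RA (5.16 ± 0.58), and Furin, a proprotein convertase, with 417, 388 and 456 CPM in SAN, against 128, 135 and 72.7 CPM in RA (1.95 ± 0.22). Neither gene overlapped between tissues.

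Other cardiac transcription factors were mostly lower or not called, with 7 of 23 lower, 1 higher and a median of −0.05. Sall1, a zinc finger factor, was listed at 0 in SAN and had 94.8, 66.2 and 17.4 CPM in RA, at least 198-fold higher there against the floor of 0.301 CPM. Nkx2-5, the core factor of working myocardium, had 2.29, 9.12 and 2.78 CPM in SAN, against 22.1, 43.4 and 13.8 CPM in RA (−2.30 ± 0.53, adjusted p = 0.00843), without overlap, and its call was lost without RA replicate 2. Hopx, a homeodomain-only cofactor, was at −2.31 ± 0.32 and Hey1, a Notch target, at −2.02 ± 0.50, the Hey1 call being lost without RA replicate 3. Irx5 was listed at 0 in SAN and had 2.24, 2.93 and 10.1 CPM in RA, a call lost without RA replicate 3. Tbx20 and Nr2f2 were at −1.04 and −1.18, and each call was lost without any of 3 single libraries, SAN replicate 2 among them. On the sarcomere scaling 4 members were higher and 5 lower. Gata5 was the member that was higher, with 66.5, 94.9 and 41.4 CPM in SAN, against 5.09, 7.02 and 5.60 CPM in RA (3.25 ± 0.38). Tbx5 and Gata4, which pattern heart muscle in general, overlapped between tissues at 0.47 ± 0.24 and 0.02 ± 0.21 and were not called.

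**Figure D3:**
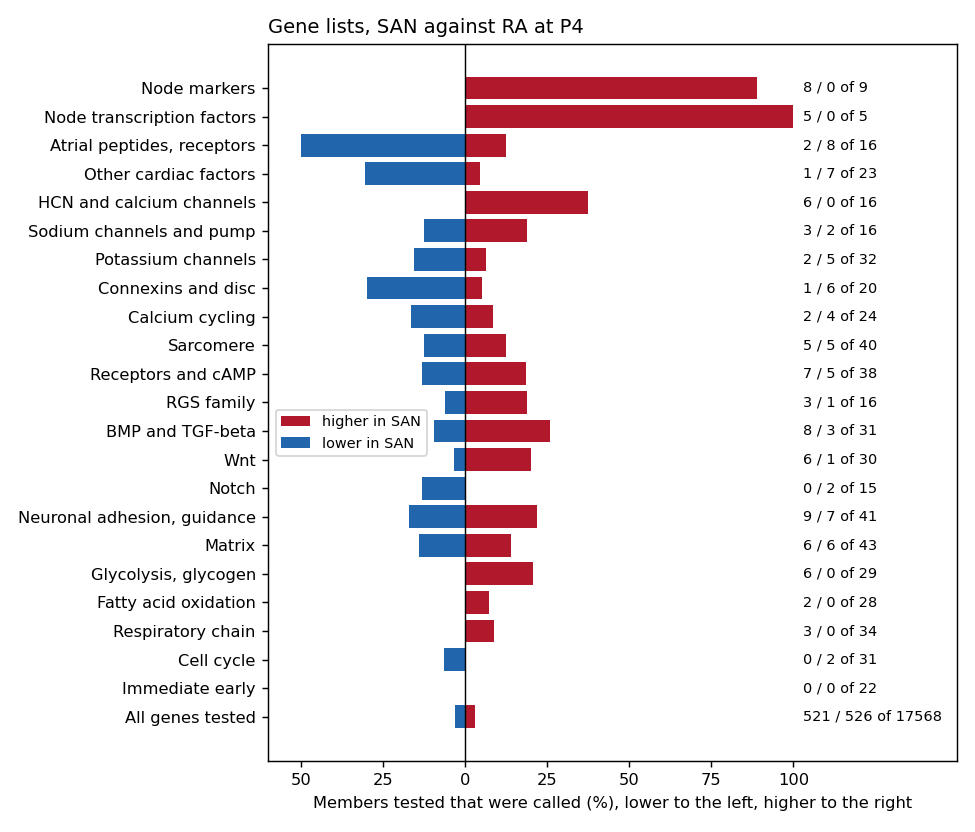
Share of the tested members of each gene list called higher (red, to the right) or lower (blue, to the left) in SAN at P4, in percent, with the counts higher / lower of tested at the right. Node lists stand to the right at 100% and 88.9%, atrial peptides to the left at 50%, and all genes tested at 2.97% and 2.99%.

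Channels of the pacemaker current and of calcium entry were higher in SAN for 6 of 16 members and lower for 0, with a median of 1.03. Hcn4 (above), the gene of the dissection check, is one of them. Cacna1d, the L-type channel of pacemaker cells, had 320.2, 398 and 280.4 CPM in SAN, against 74.0, 60.8 and 65.6 CPM in RA (2.29 ± 0.30), and the auxiliary subunit gene Cacna2d2 had 1501, 1544 and 854 CPM in SAN, against 189, 269 and 489 CPM in RA (2.10 ± 0.29). Cacna1g, a T-type channel, had 397, 429.7 and 410.5 CPM in SAN, against 116, 65.9 and 24.5 CPM in RA (2.82 ± 0.42), with RA replicate 3 the lowest RA library. None of these channel genes overlapped between the tissues. Cacnb4 was at 1.94 ± 0.46, a call lost without RA replicate 1, SAN replicate 1 or SAN replicate 2. Cacna1c, the L-type channel of working muscle, had 183, 139 and 140.2 CPM in SAN, against 306, 223 and 199.7 CPM in RA. It did not overlap between the tissues but did not pass the test (−0.64 ± 0.28, adjusted p = 0.209).

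Both main connexin genes of working atrial muscle were lower in SAN. Gja1 (connexin 43) had 7.52, 11.02 and 13.1 CPM in SAN, against 454, 387 and 456 CPM in RA (−5.25 ± 0.33, adjusted p = 5.61e-10), and Gja5 (connexin 40) had 5.32, 37.4 and 84.5 CPM in SAN, against 680.0, 689 and 642 CPM in RA (−4.61 ± 0.63). For Gja5 the SAN libraries spread widely while the RA libraries were even, and the tissues did not overlap. Scn10a, a sodium channel first known from sensory neurons, had 0, 1.90 and 2.87 CPM in SAN, against 80.0, 96.9 and 61.1 CPM in RA (−5.14 ± 0.68). In the list of connexins and intercalated disc genes 6 of 20 were lower and 1 higher, with a median of 0.00. Dsg2, a desmosomal cadherin, was at −4.28 ± 0.40, Dsc2 at −1.94 ± 0.36, Pkp2 (plakophilin) at −1.33 ± 0.24 and Cdh13 at −0.74 ± 0.18, the last call being lost without RA replicate 1, RA replicate 2 or SAN replicate 3. Tjp1, the tight junction scaffold ZO-1, was the member that was higher, with 802, 774 and 684 CPM in SAN, against 362, 302 and 347 CPM in RA (1.16 ± 0.14). Gjc1 (connexin 45), the connexin usually named for the node, overlapped between tissues with 63.0, 105 and 82.8 CPM in SAN, against 73.4, 63.1 and 90.2 CPM in RA (0.13 ± 0.27, adjusted p = 0.866).

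Of 16 sodium channel, pump and exchanger genes 3 were higher and 2 lower, Scn10a (above) among the lower. Atp1b1, a sodium pump subunit, had 822, 977 and 903 CPM in SAN, against 400.0, 359.9 and 426 CPM in RA (1.19 ± 0.20). Scn3b, a small sodium channel subunit, was at 2.83 ± 0.56. The sodium-calcium exchanger gene Slc8a1 overlapped, at −0.01 ± 0.20.

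Among 32 potassium channel genes 5 were lower and 2 higher, with a median of 0.01. Kcnh7, of the ether-a-go-go family, had 3.58, 8.82 and 0.0871 CPM in SAN, against 159, 107 and 151 CPM in RA (−5.24 ± 0.53). Abcc8, the sulfonylurea receptor of atrial ATP-sensitive channels, had 8.44, 6.51 and 25.1 CPM in SAN, against 225, 188 and 182 CPM in RA (−4.02 ± 0.45). Both were far below RA in every SAN library. Kcnj2, a main gene of the inward rectifier current that holds resting potential, had 30.2, 8.42 and 20.3 CPM in SAN, against 101, 88.9 and 144 CPM in RA (−2.58 ± 0.46). Kcnj3, a subunit of the acetylcholine-activated channel, had 90.9, 55.3 and 52.5 CPM in SAN, against 335, 434 and 586 CPM in RA (−2.76 ± 0.32), while its partner subunit Kcnj5 overlapped at −0.05 ± 0.22. Kcnip2, a subunit of the transient outward channel, was at −2.52 ± 0.63 and Kcne4 at 2.15 ± 0.56. The Kcnip2 call was lost without RA replicate 1 or SAN replicate 2 and was made by neither edgeR nor DESeq2, and the Kcne4 call without any of 4 single libraries.

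In calcium cycling 2 of 24 genes were higher and 4 lower. Pln, phospholamban, the inhibitor of the sarcoplasmic calcium pump, had 5114, 3369.5 and 1872 CPM in SAN, against 433, 780.2 and 516 CPM in RA (2.51 ± 0.31), and the SAN libraries lay above RA with a wide spread of their own. Ryr2, the cardiac calcium release channel, had 1827, 1346 and 1144 CPM in SAN, against 3274, 2886 and 3311 CPM in RA (−1.16 ± 0.20), and Ryr3, a minor release channel, had 0, 4.81 and 21.2 CPM in SAN, against 327, 111 and 185 CPM in RA (−5.23 ± 0.76). Neither overlapped between tissues. Itpr2 was at −1.22 ± 0.23 and Hrc, a luminal calcium binder, at 1.00 ± 0.21. Sln, sarcolipin, was at −1.10 ± 0.29, a call lost without RA replicate 1, RA replicate 2, SAN replicate 1 or SAN replicate 3. The pump gene itself, Atp2a2, overlapped at 0.26 ± 0.19. On the sarcomere scaling 5 members were higher and 3 lower.

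The contractile apparatus split, with 5 of 40 sarcomere genes higher, 5 lower and a median of −0.16. Actc1 (cardiac actin) had 16703, 14474 and 14008 CPM in SAN, against 8138, 7337 and 6726 CPM in RA (1.03 ± 0.16), and Tnnt2 (cardiac troponin T) had 5927, 8642 and 5428 CPM in SAN, against 3532, 3455 and 2964 CPM in RA (0.98 ± 0.19). Both tissues are thus rich in muscle transcripts, and the summed level of the list was 89795 to 104671 CPM in SAN, against 100360 to 120182 CPM in RA. Tpm1, Csrp3 and Tcap were the other higher members, at 0.84, 0.62 and 0.98, and these calls were lost without SAN replicate 2 and, for Csrp3 and Tcap, without any of 4 and 5 single libraries. Ankrd1, a stretch-responsive cofactor, had 14.4, 84.7 and 254 CPM in SAN, against 1217, 1558 and 1145 CPM in RA (−4.22 ± 0.55), and Smpx, a small muscle protein, had 3.39, 25.2 and 54.8 CPM in SAN, against 289, 317 and 214 CPM in RA (−3.87 ± 0.53). SAN replicate 3 was the highest SAN library for both. Myom2 was at −2.47 ± 0.54, Mylk3 at −1.51 ± 0.25 and Nebl at −1.07 ± 0.16. On the sarcomere scaling 9 members were higher and 5 lower. In bulk libraries fewer cells of a type and less RNA per cell cannot be told apart.

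Receptors and cAMP enzymes were called in both directions, with 7 of 38 higher, 5 lower and a median of 0.05. Adcy1, a calcium-stimulated adenylyl cyclase, had 2.84, 1.80 and 7.31 CPM in SAN, against 91.5, 147 and 97.5 CPM in RA (−4.63 ± 0.39), whereas Adcy5, a main cardiac isoform, had 283, 195 and 117 CPM in SAN, against 88.5, 100.1 and 25.0 CPM in RA (1.60 ± 0.37). The Adcy5 call was lost without RA replicate 3 or SAN replicate 1. Adora1, the adenosine receptor that slows the node, had 79.2, 89.9 and 66.7 CPM in SAN, against 16.6, 13.8 and 0.215 CPM in RA (3.54 ± 0.64), and RA replicate 3 was the lowest. Adrb1, the main cardiac beta-adrenergic receptor, was at 1.47 ± 0.42 and Chrm3, a muscarinic receptor, at 1.84 ± 0.53, and each call was lost without any of 4 single libraries. Neither edgeR nor DESeq2 called Chrm3. Pde3b and Pde8a, phosphodiesterases, were at −1.51 ± 0.25 and −1.87 ± 0.46, and the Pde8a call was lost without RA replicate 3, SAN replicate 1 or SAN replicate 2. With RA replicate 3 left out 1 member was higher, with SAN replicate 1 or SAN replicate 2 left out 2, and on the sarcomere scaling 9 were higher and 3 lower. Of 16 RGS genes, which shorten G protein signals, 3 were higher and 1 lower. Rgs4 had 193, 125 and 94.3 CPM in SAN, against 3.87, 1.78 and 1.08 CPM in RA (5.45 ± 0.41, adjusted p = 7.19e-09) and Rgs2 had 24.5, 5.91 and 10.4 CPM in SAN, against 47.4, 91.0 and 139 CPM in RA (−2.76 ± 0.46), each without overlap but in opposite directions. Rgs12 was at 1.45 ± 0.26.

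Signals of the BMP and TGF-beta family were higher for 8 of 31 members and lower for 3, with a median of 0.33. Beside Bmp10, Bmp2 had 99.3, 337 and 219.6 CPM in SAN, against 4.48, 15.1 and 26.3 CPM in RA (3.87 ± 0.45) and Bmp4 had 29.5, 74.1 and 138 CPM in SAN, against 4.17, 9.11 and 4.30 CPM in RA (3.39 ± 0.44). These ligands pattern the myocardium. Bmp7 was at 2.23 ± 0.41 and Tgfb2 at 1.37 ± 0.25. Ltbp2, a latent TGF-beta binding protein, was at 3.32 ± 0.72. Smad7, an inhibitor of the pathway, was at −1.27 ± 0.36, a call lost without any of 5 single libraries and by both edgeR and DESeq2.

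Wnt genes were higher for 6 of 30 and lower for 1, with a median of 0.51. Among receptors Fzd7 had 231, 312 and 185 CPM in SAN, against 32.1, 42.3 and 52.5 CPM in RA (2.49 ± 0.26) and Fzd1 had 147, 230.0 and 154 CPM in SAN, against 32.2, 49.2 and 51.0 CPM in RA (1.98 ± 0.28). Wnt5a, a non-canonical ligand, had 234, 98.3 and 87.0 CPM in SAN, against 22.7, 37.0 and 19.2 CPM in RA (2.27 ± 0.38). All 3 genes were higher in every SAN library than in any RA library. The secreted Wnt binders Sfrp1 and Sfrp5 were at 1.69 ± 0.31 and 3.41 ± 0.74, and Axin2, a target and feedback inhibitor, at 2.39 ± 0.55. Dkk3, a secreted dickkopf family member, was the lower gene, with 61.6, 68.0 and 258 CPM in SAN, against 1223, 1094 and 1034 CPM in RA (−3.43 ± 0.46). Of 15 Notch genes 2 were lower and 0 higher, Hey1 (above) and Notch1 at −1.16 ± 0.33, and the Notch1 call was lost without any of 5 single libraries.

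Genes of neuronal adhesion and axon guidance were called in both directions, with 9 of 41 higher, 7 lower and a median of 0.11. The teneurin gene Odz4 had 1224, 813 and 568 CPM in SAN, against 19.0, 10.2 and 7.75 CPM in RA (6.05 ± 0.39), and its relative Odz3 had 238, 228 and 135 CPM in SAN, against 11.2, 14.7 and 3.44 CPM in RA (4.37 ± 0.38). Nfasc, the neurofascin adhesion molecule of axon initial segments, had 187, 159.6 and 130.1 CPM in SAN, against 0.814, 0.419 and 9.04 CPM in RA (5.74 ± 0.62). Unc5c, a netrin receptor, had 276, 101 and 80.6 CPM in SAN, against 2.54, 4.09 and 4.73 CPM in RA (4.82 ± 0.40). None of these 4 genes overlapped between tissues. Cntn2, a contactin of the conduction system, was at 4.14 ± 0.69, Efna5 (ephrin A5) at 2.80 ± 0.42 and Sema3c at 2.96 ± 0.42. Lower in SAN were Epha4, an ephrin receptor, with 26.6, 62.6 and 51.9 CPM in SAN, against 519.7, 578 and 617 CPM in RA (−3.66 ± 0.41), and Sema3a, a repellent of sympathetic axons, with 2.48, 1.30 and 9.05 CPM in SAN, against 100.4, 98.5 and 105 CPM in RA (−4.56 ± 0.53). In RA both genes were even across libraries.

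Several of the largest differences lay outside these groups. Syt13, an atypical synaptotagmin, had 127, 57.8 and 40.0 CPM in SAN, against 0, 0.105 and 0 CPM in RA, with 2423 reads in SAN and 1 in RA, a ratio of 1798 with a 95% exact interval of 322 to 71045 for counting error only. The gene was thus seen in RA by a single read. Tub, the tubby protein, had 261, 278 and 116 CPM in SAN, against 0.305, 1.78 and 7.96 CPM in RA, Gcgr, the glucagon receptor, had 86.2, 171 and 95.9 CPM in SAN, against 1.42, 1.15 and 0.215 CPM in RA (5.94 ± 0.49), and Ncan, the neurocan proteoglycan, had 76.2, 244 and 422 CPM in SAN, against 16.2, 2.83 and 0 CPM in RA (5.63 ± 0.79). The SAN libraries of Ncan varied widely.

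On the atrial side Thbs4, a thrombospondin of the matrix, had 0.0916, 0.1003 and 1.48 CPM in SAN, against 67.4, 155 and 188 CPM in RA (−6.46 ± 0.62). Mb, myoglobin, had 11.9, 2.91 and 16.4 CPM in SAN, against 616, 757 and 347 CPM in RA (−5.83 ± 0.69), and Fgf12, an intracellular modulator of sodium channels, had 2.20, 0.701 and 13.7 CPM in SAN, against 278, 250.5 and 174 CPM in RA (−5.74 ± 0.50). These 3 genes were high in every RA library. Sbk2, a kinase, was listed at 0 in SAN and had 39.6, 46.7 and 67.1 CPM in RA, at least 170-fold higher there. Angpt1, an angiopoietin, had 3.94, 1.80 and 8.96 CPM in SAN, against 207, 337 and 193 CPM in RA (−5.53 ± 0.46) and Tmem163, a zinc transporter, had 4.13, 8.62 and 3.31 CPM in SAN, against 190.3, 289.5 and 259.5 CPM in RA (−5.35 ± 0.63). In the matrix list 6 of 43 members were higher and 6 lower, with a median of 0.05, and on the sarcomere scaling 10 were higher and 6 lower. Spon1 (spondin) had 376, 380.2 and 375 CPM in SAN, against 124, 112 and 139 CPM in RA (1.59 ± 0.19), and Comp, a relative of Thbs4, was listed at 0 in SAN and had 4.68, 25.2 and 17.4 CPM in RA. Fn1 (fibronectin) had 385, 713 and 2451 CPM in SAN, against 2847, 2649.9 and 2076 CPM in RA (−1.51 ± 0.38). SAN replicate 3 lay within the RA range, and the call was lost without any of 4 single libraries and by both edgeR and DESeq2.

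Glycolysis and glycogen genes were higher for 6 of 29 and lower for 0 (median 0.22), where 2.97% of all genes were called higher, including the glucose transporter Slc2a1 with 63.5, 68.0 and 67.2 CPM in SAN, against 26.0, 35.7 and 18.7 CPM in RA (1.32 ± 0.26), the glycogen phosphorylases Pygb and Pygl at 1.01 ± 0.19 and 2.06 ± 0.44, and Hk1 (hexokinase) at 1.28 ± 0.28. Pkm2 and Pgam1 were at 0.78 and 0.79. Without RA replicate 3 the list had 4 higher members, and with the 6 P4 libraries fitted alone 0. Fatty acid genes were higher for 2 of 28 and lower for 0 (median 0.33), Cd36, the fatty acid uptake receptor, at 0.89 ± 0.17 and Fabp3 at 1.26 ± 0.30, and the Fabp3 call was lost without RA replicate 3 or SAN replicate 1, which left 1 member called. Respiratory chain genes were higher for 3 of 34 (median 0.35), Cox6a1, Slc25a4 and Sdha at 1.13, 0.64 and 0.57, and 0 were called without RA replicate 3. On the sarcomere scaling 8 fatty acid, 8 glycolytic and 10 respiratory genes were higher. 

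Proliferation genes had a median of −0.61, with 2 of 31 called (6.45%, near the 5.96% of all genes), both lower. Cenpf, a kinetochore protein of dividing cells, had 45.3, 58.3 and 131 CPM in SAN, against 128, 155 and 239.7 CPM in RA (−1.25 ± 0.33), with SAN replicate 3 inside the RA range, and Cdkn1c, which restrains division, was at −1.18 ± 0.35. Neither was called by edgeR. Without SAN replicate 3, 10 members were lower, and 0 without SAN replicate 1 or SAN replicate 2 and 0 on the sarcomere scaling. Of 22 immediate early and heat shock genes 0 were called by limma, edgeR or DESeq2. An unadjusted limma p under 0.05 was found for 4 of the 22 and for 3198 of all 17568 genes, a similar share.

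Markers of other cell types were measured in the same libraries. Summed endothelial markers reached 1126 to 1919 CPM in SAN and 2394 to 3010 CPM in RA without overlap. Npr3 is on this list, and without it the sums overlapped, at 1111, 1444 and 1903 CPM in SAN, against 2157, 2343 and 1894 CPM in RA. That overlap was between SAN replicate 3 and RA replicate 3 alone. Of the markers tested 7 of 21 were lower and 2 higher, with a median of −0.63. The lower ones included Emcn at −2.55 ± 0.39, Eng at −1.45 ± 0.25 and Tie1 at −1.55 ± 0.35, the Tie1 call being lost without SAN replicate 1. Nfatc1, Tek and Pecam1 were at −1.65, −1.54 and −0.81, calls lost without SAN replicate 2 and without 1 to 4 other single libraries, and Pecam1 was called by neither edgeR nor DESeq2. Apln and Cldn5 were higher, at 3.03 and 2.00, and both calls were lost without RA replicate 1, RA replicate 3 or SAN replicate 2. The part of endothelial content in the Npr3 difference was not tested.

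Neuronal marker sums were 176 to 350.2 CPM in SAN and 61.6 to 82.2 CPM in RA, with 3 of 11 higher, 0 lower and a median of 0.06. Th and Uchl1 carried the sums, which without them overlapped at 59.99, 69.5 and 96.8 CPM in SAN, against 72.8, 56.8 and 80.3 CPM in RA. Th, which makes catecholamine precursors, had 185, 38.6 and 9.83 CPM in SAN, against 0, 0.314 and 0 CPM in RA, with 3 reads in all RA libraries (ratio 623, interval 213 to 3021 for counting error only), and Uchl1, a neuronal hydrolase, had 105, 67.7 and 73.0 CPM in SAN, against 2.95, 4.50 and 1.94 CPM in RA (4.35 ± 0.41). Ddc was at 2.54 ± 0.51, while the neuronal marker Stmn2 overlapped at 1.68 ± 0.71. Glial sums overlapped, at 57.5 to 80.4 CPM in SAN and 67.4 to 88.5 CPM in RA, with Sox10 higher at 2.12 ± 0.62 and Mbp lower at −2.48 ± 0.61. The Sox10 call was lost without any of 5 single libraries and the Mbp call without RA replicate 2 or SAN replicate 3. Whether nerve within the outline carries the neuronal adhesion genes was not tested.

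Epicardial and mesothelial marker sums were 524 to 719 CPM in SAN and 249 to 512 CPM in RA, and 6 of 16 were higher (2 by edgeR and 3 by DESeq2). Tbx18 is on this list too, and without it the sums overlapped, at 199.5, 366 and 557 CPM in SAN, against 185, 421 and 227 CPM in RA. Msln (mesothelin) had 21.4, 38.8 and 38.0 CPM in SAN, against 0, 6.70 and 0 CPM in RA (4.05 ± 0.95), Lrrn4 had 38.5, 63.5 and 23.0 CPM in SAN, against 0.814, 4.82 and 0 CPM in RA (4.17 ± 1.02) and Upk3b had 45.2, 68.4 and 91.6 CPM in SAN, against 0.509, 15.8 and 0 CPM in RA (4.50 ± 1.14). In RA these genes were held mostly by replicate 2. Their calls were each lost without RA replicate 3, which left 2 of the 16 members higher, and neither edgeR nor DESeq2 called them. Msln and Upk3b were also lost without RA replicate 1, and Lrrn4 and Upk3b without SAN replicate 2. Fibroblast sums overlapped at 8430 to 16359 CPM in SAN and 7412 to 16760 CPM in RA, with 2 of 15 higher, Gpc3 at 2.39 ± 0.40 and Thy1 at 1.91 ± 0.47 (lost without RA replicate 1 or SAN replicate 2), and Pi16 lower at −2.43 ± 0.52. Smooth muscle sums were 1722, 1822 and 4513 CPM in SAN and 1411 to 2272 CPM in RA, and Myh11, smooth muscle myosin, had 5.78, 121 and 308 CPM in SAN, against 2.14, 0.524 and 10.1 CPM in RA (4.08 ± 0.90). SAN replicate 1 lay within the RA range of Myh11. Macrophage markers Lyve1 and Cd74 were lower, at −3.67 ± 0.80 and −3.51 ± 0.80 and 15 others were not called. The Cd74 call was lost without SAN replicate 2, edgeR called neither gene, and DESeq2 did not call Cd74. Of 9 erythroid genes 0 were called, and sums ran at 1075 to 3741 CPM in SAN and 928 to 9734 CPM in RA. Of 9 listed adipocyte markers 3 were present in the data, and their sums were 90.6 to 156 CPM in SAN and 36.4 to 75.4 CPM in RA, without overlap. Of these 3 markers 1 was called higher, Cidea at 2.18 ± 0.57, and 0 were called lower. Fabp4, which is also on the endothelial list, was at 0.98 ± 0.49 and Pparg at −0.24 ± 0.60, neither of them called. The Cidea call was lost without RA replicate 3 or SAN replicate 1 and was not made by edgeR. Ventricular marker sums were 3757 to 6606 CPM in SAN and 1860 to 2377 CPM in RA, without overlap. Of 7 tested 2 were higher (2.97% of all genes) and 0 lower, with a median of 0.07. The higher ones were Pln (above), whose levels are part of these sums, and Lbh at 1.43 ± 0.26. Myl2, the ventricular myosin light chain, overlapped, at 2.57 to 21.2 CPM in SAN and 0.509 to 24.5 CPM in RA.

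**Figure D4:**
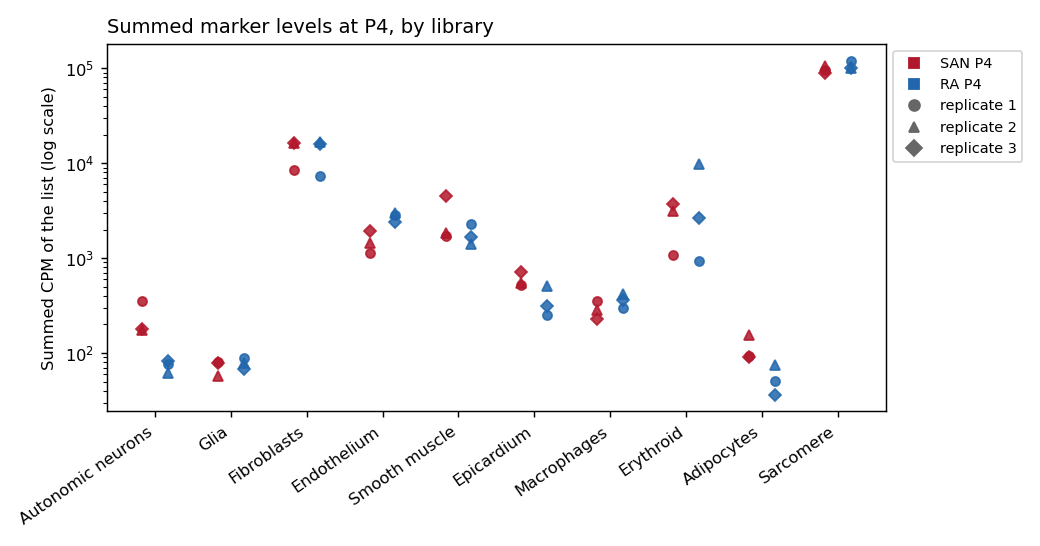
Summed CPM (log axis) of the marker lists of other cell types and of the sarcomere list in each P4 library, SAN in red and RA in blue, with symbols for the replicates. Endothelial sums are lower and neuronal, epicardial and adipocyte sums higher in all 3 SAN libraries. The sums of glia, fibroblasts, macrophages and erythroid cells overlap. The first 3 separations are lost without Npr3, without Th and Uchl1, and without Tbx18, the endothelial one through replicate 3 of each tissue alone. The adipocyte sums rest on 3 genes, of which 1 was called.

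The P4 difference was set beside those at E14.5 and P14 by testing the change in the difference itself. The SAN minus RA difference was not the same at P4 as at E14.5 for 202 genes (1.15%), 107 with a more positive value at P4 (0.609%) and 95 with a more negative one (0.541%). Against P14 it changed for 30 genes (0.171%), 4 more positive (0.0228%) and 26 more negative (0.148%). Both comparisons use the same P4 libraries, so their values are not independent of each other. At E14.5 one SAN library, replicate 1, held 829 CPM of Myl2 against at most 24.5 CPM in any other of the 18 libraries, and without it 148 genes passed and 137 of the 202 calls were kept. The count against P14 was 188 without SAN P4 replicate 3 and 9 to 18 without any other P4 library. By contrast 174 genes were called in the same direction at all 3 stages. 

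A few genes were set apart at P4 from both other stages. Gja1 differed by −5.25 ± 0.33 at P4, −2.16 ± 0.33 at E14.5 and −2.12 ± 0.33 at P14, a change of −3.10 from E14.5 (adjusted p = 0.00121) and of −3.13 from P14 (adjusted p = 0.00326). Its SAN level was lowest at P4, at 44.2 ± 14.6, 10.6 ± 2.84 and 86.3 ± 59.8 CPM (SD, n = 3) at E14.5, P4 and P14, against 193 ± 17.3, 432 ± 39.6 and 328 ± 28.3 CPM in RA. The call held with any P4 library left out. Hamp, which encodes the iron hormone hepcidin, had 31.8, 86.3 and 60.7 CPM in SAN, against 1.12, 0 and 0 CPM in RA at P4 (5.45 ± 0.52). It was near 0 in both tissues at E14.5, and at P14 it averaged 272 ± 165 CPM in SAN and 171 ± 93.1 CPM in RA, so the change was 5.06 from E14.5 and 4.83 from P14. Tuba4a, an alpha tubulin, averaged 21.3 ± 3.65, 194 ± 35.6 and 172 ± 37.2 CPM in SAN at E14.5, P4 and P14, against 16.3 ± 3.70, 23.3 ± 9.59 and 159 ± 28.1 CPM in RA. Levels in SAN were thus high at P4 and P14 and in RA at P14 alone. Nov, a CCN matrix protein, and Nts, neurotensin, were lower at P4 (−2.46 and −3.31) while at E14.5 they were at 1.35 and 0.85 and at P14 at 1.77 and 0.83. The P4 call of Nov was lost without RA replicate 2, RA replicate 3 or SAN replicate 1, and the changes from P14 were lost without any of 5 (Nov) or 4 (Nts) single P4 libraries.

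Mb was among the genes whose difference changed between E14.5 and P4. It averaged 9.67 ± 14.5 CPM in SAN and 8.98 ± 1.60 CPM in RA at E14.5, and 10.4 ± 6.89 CPM in SAN and 573 ± 208 CPM in RA at P4, a change in the difference of −4.90 (adjusted p = 0.0111). Scn10a averaged 8.96 ± 10.9 CPM in SAN and 13.2 ± 4.54 CPM in RA at E14.5, and 1.59 ± 1.46 CPM in SAN and 79.3 ± 17.9 CPM in RA at P4, a change of −4.08 (adjusted p = 0.0358) that was lost without any of 5 single P4 libraries. RA levels of both genes were higher at P4 than at E14.5. Adcy1, Kcnj3, Dsg2 and Pam also changed, by −3.58, −2.48, −2.63 and −1.72, and the Dsg2 change was lost without SAN P4 replicate 2. Fndc5, the irisin precursor, was higher in SAN at E14.5 (2.13 ± 0.38) and lower at P4 (−3.38 ± 0.38). Of 16 tested atrial peptide genes 6 had a called change, and of 41 adhesion genes 8, where 1.15% of all genes did. Without SAN E14.5 replicate 1 these counts were 4 and 5, and with a P4 library left out 2 to 5 and 1 to 9. Of 20 connexin and disc genes 3 changed, of 16 sodium channel and pump genes 2 and of 32 potassium channel genes 1, the last near the share of all genes. Without SAN E14.5 replicate 1 these 3 counts were 3, 2 and 2, and with a P4 library left out 2 to 4, 1 to 2 and 1 to 2. In the other direction Syt13, Nfasc, Gata5 and Fzd1 changed by 5.96, 4.07, 3.33 and 1.98, and the Nfasc change was lost without any of 3 single P4 libraries. Of 16 epicardial markers 5 changed (3 without SAN E14.5 replicate 1, 2 to 5 with a P4 library left out). Upk3b, whose change was lost without RA P4 replicate 3, averaged 42.5 ± 52.0 CPM in SAN and 125 ± 33.4 CPM in RA at E14.5, against 68.4 ± 23.2 CPM in SAN and 5.44 ± 8.99 CPM in RA at P4.

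**Figure D5:**
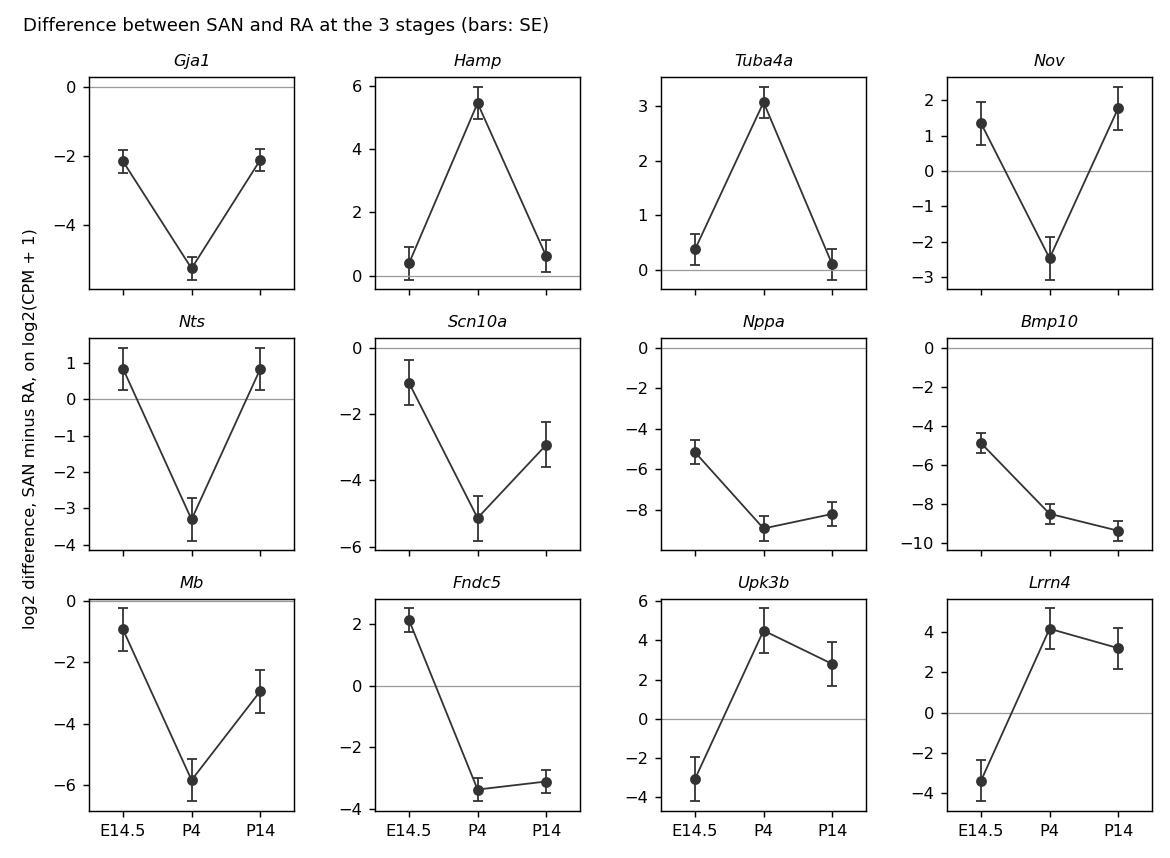
Log2 difference SAN minus RA (vertical axis, on log2(CPM + 1), a scale of its own per panel) at E14.5, P4 and P14 for 12 genes, as fitted means with bars of 1 SE. Gja1, Nov and Nts dip at P4, Hamp and Tuba4a peak at P4, and Upk3b and Lrrn4 lie below 0 at E14.5 and above 0 at P4.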

How the data were processed

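The submitters' processing notes name TopHat2 2.0.6, edgeR and the build mm8. The deposited signal values were, within 0.1 of a read, whole multiples of 1 step per library, for 100% of values in the 18 libraries used, and the reads were recovered from that step. The deposited unit differed from the one first assumed in choosing tests. Values were divided by 24.3 to give CPM. Genes at 1 CPM in at least 3 of 18 libraries were tested (17568 of 20870). limma 3.58.1 (R 4.3.3) with a mean-variance trend was fitted to log2(CPM + 1) with 6 group means, and a gene was called when its p, adjusted over the 17568 genes by Benjamini-Hochberg, was under 0.05. Where no tool is named, the adjusted p is limma's.

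The comparison, gene lists and alternatives were chosen with earlier results of these data known. Named were 10 set genes, the 12 largest called differences in each direction without overlap and with a mean of at least 5 CPM, the 5 largest interactions in each direction and the 4 smallest p of each of 35 lists, which gave 149 genes after some that are not reported here were left out. Another 57 genes were named after their values were seen. The largest differences pass over gene models with no symbol and the hemoglobin, histocompatibility, immunoglobulin, ribosomal and mitochondrial genes.

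Alternatives were pseudocounts of 0.25 and 4, no filter, a filter of 5 CPM, scaling to upper quartiles or sarcomere genes, a replicate block, library weights, the P4 libraries alone, edgeR 4.0.16 and DESeq2 1.42.0 on recovered reads, and each P4 library left out. On simulated data limma found 8% of 100 planted 2-fold and 57% of 100 planted 4-fold P4 changes among 17263 genes, with 2 false calls. Smaller changes were thus often missed there. Far fewer changes were planted than the 1047 genes called at P4, which makes the adjusted cutoff stricter, so these shares need not hold for the real data. Intervals and floors of 3 reads hold for counting error alone, because reads from amplified RNA are no independent molecules. Library preparation carries no stated strand, so overlapping antisense genes cannot be told apart.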

Additional observations from a re-analysis of the deposited data

Results flagged for a closer look

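Of the genes named here, 45 had a difference between SAN and RA at P4 that was not the same as at E14.5, and 10 one that was not the same as at P14, by the test of the change itself (limma, adjusted p under 0.05). For 5 genes both changes passed, and both use the same P4 libraries. Values are the log2 difference at P4 minus that at the other stage.

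Relative to E14.5, SAN moved down against RA most for Fndc5 (−5.51), Dpt (−5.44), Sbk2 (−5.13), Mlana (−5.08), Mb (−4.90), Nts (−4.16), Scn10a (−4.08), Nov (−3.81), Nppa (−3.76) and Fgf12 (−3.61). Smaller moves down were those of Bmp10 (−3.61), Adcy1 (−3.58), Ankrd1 (−3.46), Adm (−3.27), Gja1 (−3.10), Sln (−2.68), Dsg2 (−2.63), Kcnj3 (−2.48), Npr3 (−1.99), Corin (−1.86), Pam (−1.72) and Ryr2 (−1.24). Fndc5 was higher in SAN at E14.5 and lower at P4. SAN moved up against RA for Upk3b (7.59), Lrrn4 (7.54), Lrp2 (6.61), Fam163a (6.19), Ano1 (5.97), Syt13 (5.96), Msln (5.60), Upk1b (5.43), Hamp (5.06), Cntn2 (4.26), Nfasc (4.07) and Gata5 (3.33). The remaining upward moves were Gcgr (3.00), Efna5 (2.78), Tuba4a (2.70), Odz3 (2.40), Unc5c (2.35), Odz4 (2.31), Fzd1 (1.98), Slc2a1 (1.65), Spon1 (1.41), Tjp1 (1.08) and Cd36 (1.04). Upk3b, Lrrn4, Lrp2, Ano1 and Upk1b, among others, were below 0 at E14.5 and above 0 at P4. Without SAN E14.5 replicate 1, the library with 829 CPM of Myl2, 35 of the 45 passed, and Nppa, Odz4, Npr3, Ankrd1, Unc5c, Odz3, Cd36, Slc2a1, Msln and Cntn2 did not (adjusted p 0.0624 to 0.108). With the P4 libraries left out in turn, 20 of the 45 were lost at least once, Corin, Scn10a and Unc5c in 5 of 6 leave-outs and Cd36, Cntn2, Msln, Npr3, Odz4 and Ryr2 in 4. The other 25 passed in each, and also without SAN E14.5 replicate 1.

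Relative to P14, the difference at P4 was more negative for Ntrk3 (−4.89), St8sia1 (−4.27), Nov (−4.23), Nts (−4.14), Pi16 (−3.96), Angpt1 (−3.14) and Gja1 (−3.13). It was more positive for Hamp (4.83), Tuba4a (2.97) and Hspb8 (1.64). Gja1, Hamp and Tuba4a passed with each P4 library left out, while the other 7 were lost with at least 4 of the 6 left out in turn. edgeR on recovered reads called 4 of the 10 and DESeq2 8.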

How the results depend on the processing

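Of 164 named genes called at P4, 0 changed direction across the alternatives and 97 kept their call under each, while 11 named genes that were not called, Gata4, Gjc1, Kcnj5 and Slc8a1 among them, had both signs. The called genes lost by edgeR numbered 24 and by DESeq2 9, and these 9 (Cd74, Chrm3, Fn1, Kcnip2, Lrrn4, Msln, Pecam1, Smad7 and Upk3b) were lost by both. Those lost by edgeR alone were Axin2, Cdkn1c, Cenpf, Cidea, Cldn5, Dmkn, Hey1, Kcne4, Lyve1, Mbp, Notch1, Nov, Pde8a, Sox10 and Tek. Counts at P4 (1047 called) were 866 by edgeR, 1404 by DESeq2, 946 with equal upper quartiles and 974 with the replicate block (499 higher, 475 lower), and 750 to 1374 with a P4 library left out (360 to 592 higher, 372 to 782 lower). Of the calls 773 were shared with edgeR and 950 with DESeq2. Scaling to sarcomere genes gave 973 higher and 344 lower (73.9% higher, against 49.8%), DESeq2 806 higher, and the 6 P4 libraries fitted alone 400 called (210 higher, 190 lower), with 101 of the 164 named calls. The causes of these shifts were not tested. The last fit has fewer libraries and takes the spread from P4 libraries alone. Genes whose difference changed from E14.5 (202) numbered 403 by DESeq2, 445 with library weights, 165 with the block and 143 to 279 with a P4 library left out. The change from P14 (30) was called for 12 genes at a pseudocount of 0.25, 16 without a filter, 8 with equal upper quartiles, 15 with the block, 19 by edgeR, 113 by DESeq2, and 9 to 188 with a P4 library left out, so that count is not settled by these data. Same-number SAN and RA libraries at P4 deviated together by −0.04, 0.02 and −0.06 (correlation over genes), so the shared numbers showed no pairing. The largest P4 value was 0.11, for SAN replicate 3 with RA replicate 1, the P4 libraries with high Xist. The replicate block joined libraries by number. At P4 Xist was 0.184 CPM in SAN replicate 1 and 4544 CPM in RA replicate 1, and 3967 CPM in SAN replicate 3 and 0 CPM in RA replicate 3. Libraries numbered 1 or 3 are thus not of 1 animal in both tissues, so the block is no test of pairing there. Pairing under other numbers was not tested. The leave-out of SAN E14.5 replicate 1 and the marker sums without single genes were chosen after the data were seen. Depth limits low genes most in RA replicate 3, where 3 reads are 0.646 CPM.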
